A study of Mus musculus with 10 samples.

Results

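The Sox genes encode transcription factors, and the 10 listed here (Sox1, Sox2, Sox4, Sox5, Sox6, Sox8, Sox9, Sox10, Sox11 and Sox21) were looked up by symbol in the gene matrix of a RIP-seq experiment on the RNA-binding protein MEX3A. Of the 10, 9 had a row among the 15899 genes of the matrix, and Sox10 was not analysed here. RIP-seq (RNA immunoprecipitation followed by sequencing) reads the RNA that comes down with a protein. The FLAG libraries came from neurosphere cultures of Mex3a-FLAG/FLAG mice, in which both alleles of Mex3a carry a 3X-FLAG epitope at the C-terminus of the protein, under its own promoter. The WT libraries came from Mex3a+/+ cultures of the same C57BL/6J background, which lack the epitope, so that what the anti-FLAG antibody brought down there measures nonspecific binding. All cultures were adult neural stem cells (NSC) from the subependymal zone (SEZ) of mice aged 10 weeks, grown with EGF and FGF. There were 4 libraries from cells crosslinked with formaldehyde (2 FLAG and 2 WT) and 6 from native lysates (3 FLAG and 3 WT). The question put to the Sox genes was whether their RNA was more abundant in the FLAG than in the WT pulldown. Input RNA was not analysed here, so a FLAG to WT difference reflects binding to MEX3A as well as the amount of each RNA in the cells, and so fewer cells with an RNA or less of it per cell, and these cannot be told apart.

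SOX proteins bind DNA through a high mobility group (HMG) box and act with partner factors, among them POU proteins. They are grouped by sequence. The SOXB1 proteins (Sox1 and Sox2 here) hold neural cells in the progenitor state, while the SOXB2 protein Sox21 acts mainly as a repressor on related sites. The SOXC proteins (Sox4 and Sox11) turn on neuronal genes as progenitors differentiate. The SOXD proteins (Sox5 and Sox6) have no activation domain of their own and dimerise through a coiled coil, and the SOXE proteins (Sox8, Sox9 and Sox10) act in glial cells, with Sox9 also marking astrocytes and NSCs. MEX3A is a protein with KH domains, which bind RNA, and a RING finger. Its worm relative MEX-3 binds a bipartite element in 3′ untranslated regions (3′ UTRs), the MEX-3 recognition element (MRE).

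All 9 Sox mRNAs carried at least 1 match to the MRE in their longest annotated 3′ UTR, and so did 79.1% of the 12177 protein-coding genes of the matrix with an annotated 3′ UTR. The match closest to the 3′ end of the UTR is shown for the 4 genes with the largest FLAG to WT difference over all libraries (Sox9, Sox4, Sox11 and Sox2) and for the 2 long SOXD genes, whose difference was small. The capitals mark the 2 parts of the element, the lower case letters between them the spacer, and 5 bases flank the match on each side. Each is written 5′ to 3′ on the strand of its gene, from GRCm38.
Sox9 at chr11:112787369-112787386, plus strand: gctggAGAGTATAaggaa
Sox4 at chr13:28949345-28949370, minus strand: ggtttATAGctgttgtgTTTAaagat
Sox11 at chr12:27334889-27334912, minus strand: aaagcATAGgcaaagTATAgaggg
Sox2 at chr3:34652288-34652311, plus strand: tttccGTAGttgtatTTTAaaaga
Sox5 at chr6:143828663-143828685, minus strand: ataacATAGtgtaaTATAagttg
Sox6 at chr7:115470990-115471009, minus strand: gcgggGGAGtgTCTAtagga
The count of matches mostly rose with the length of the UTR, though Sox9 held more than the longer UTRs of Sox4 and Sox1. Sox11, with a UTR of 6957 nt, held 21, and Sox6, with 6046 nt, held 19. Sox5 held 14 in 4839 nt, Sox9 held 8 in 2250 nt and Sox4 held 7 in 2780 nt. Sox1 held 7 in 2590 nt, Sox8 held 4 in 1441 nt, Sox21 held 4 in 1573 nt and Sox2 held 3 in 1086 nt. Together the 9 UTRs held 87 matches, or 2.94 per kb, against 2.68 per kb over all coding genes. With the last bases of the element swapped, the form tried as an alternative, they held 70, or 2.37 per kb against 2.52, so the order turned, and the count fell from 3 to 1 in Sox2 and from 4 to 1 in Sox21 and was 9 in Sox1. Among coding genes with a 3′ UTR within 20% of its length, the share that held at least as many matches was 28.4% for Sox9, and it lay between 38.7% (Sox6) and 51.7% (Sox4) for the other 8 Sox genes. Per kb, the Sox5 and Sox6 UTRs held 2.89 and 3.14 matches and those of Sox4 and Sox11 held 2.52 and 3.02. A match in these letters is a description and not a binding site.

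The deposited values are log2 values normalised between libraries. Their linear values add up to nearly the same total in every library (949427 to 949437), so the sequencing depth of a library is unknown. The FLAG native replicates 1 and 3 stand apart, with 329 and 178 genes tied at their lowest value against 1 to 3 genes in each of the other 8 libraries, and what the Sox differences become without them is given after the values of each gene. Mex3a itself, the tagged gene, had 3.92 and 4.16 in FLAG against 2.75 and 3.03 in WT crosslinked libraries, and 5.95, 4.03 and 6.10 in FLAG against 3.33, 3.52 and 2.89 in WT native libraries. Of the 8 markers of neural stem and progenitor cells, all had a row, and their summed linear level was 1981 to 2786 over the 10 libraries.

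In the comparison of FLAG with WT over all 10 libraries (limma, with the protocol as a covariate), the values of 8 of the 9 Sox genes were higher in FLAG, by a median of 0.91 on the log2 scale against -0.03 over all 15899 genes. The largest differences were those of Sox9, Sox4 and Sox11, and Sox5 alone had a negative one. None of the 9 passed the threshold of an adjusted p under 0.05 with a log2 fold change above 0.58 (background 0.264% higher and 0.233% lower), and the smallest adjusted p was 0.0852 (Sox9). With same-numbered crosslinked and native libraries of a genotype as a random block, 7 of all genes were called higher and 8 lower, against 42 and 37 without it, no Sox gene was called, and the smallest adjusted p of a Sox gene was 0.166. At an unadjusted p under 0.05 and a log2 fold change above 0.58, there were 6 of 9 higher (Sox2, Sox4, Sox8, Sox9, Sox11 and Sox21, background 7.24%) and 0 of 9 lower (background 5.28%). The study had picked some of these genes as bound on these same libraries, so their direction here is not independent evidence. In the crosslinked libraries all 9 differences were above 0, with a median of 0.73 against -0.02 over all genes, and 4 of 9 passed the unadjusted rule (Sox2, Sox4, Sox9 and Sox11, background 2.78%) and 0 of 9 as lower (background 0.987%). In the native libraries 8 of 9 were above 0, with a median of 1.14 against -0.04, and 6 of 9 passed the unadjusted rule (Sox2, Sox4, Sox8, Sox9, Sox11 and Sox21, background 7.77%) and 0 of 9 as lower (background 7.06%). No Sox gene passed the adjusted threshold in either protocol, where of all genes none was called higher in the crosslinked (background 0%) or in the native libraries (background 0%) and native ones called lower were 0.107% of all genes, and the smallest adjusted p for a Sox gene was 0.315 crosslinked and 0.232 native. The 3 comparisons share libraries and are set side by side for each gene below.

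**Figure D1:**
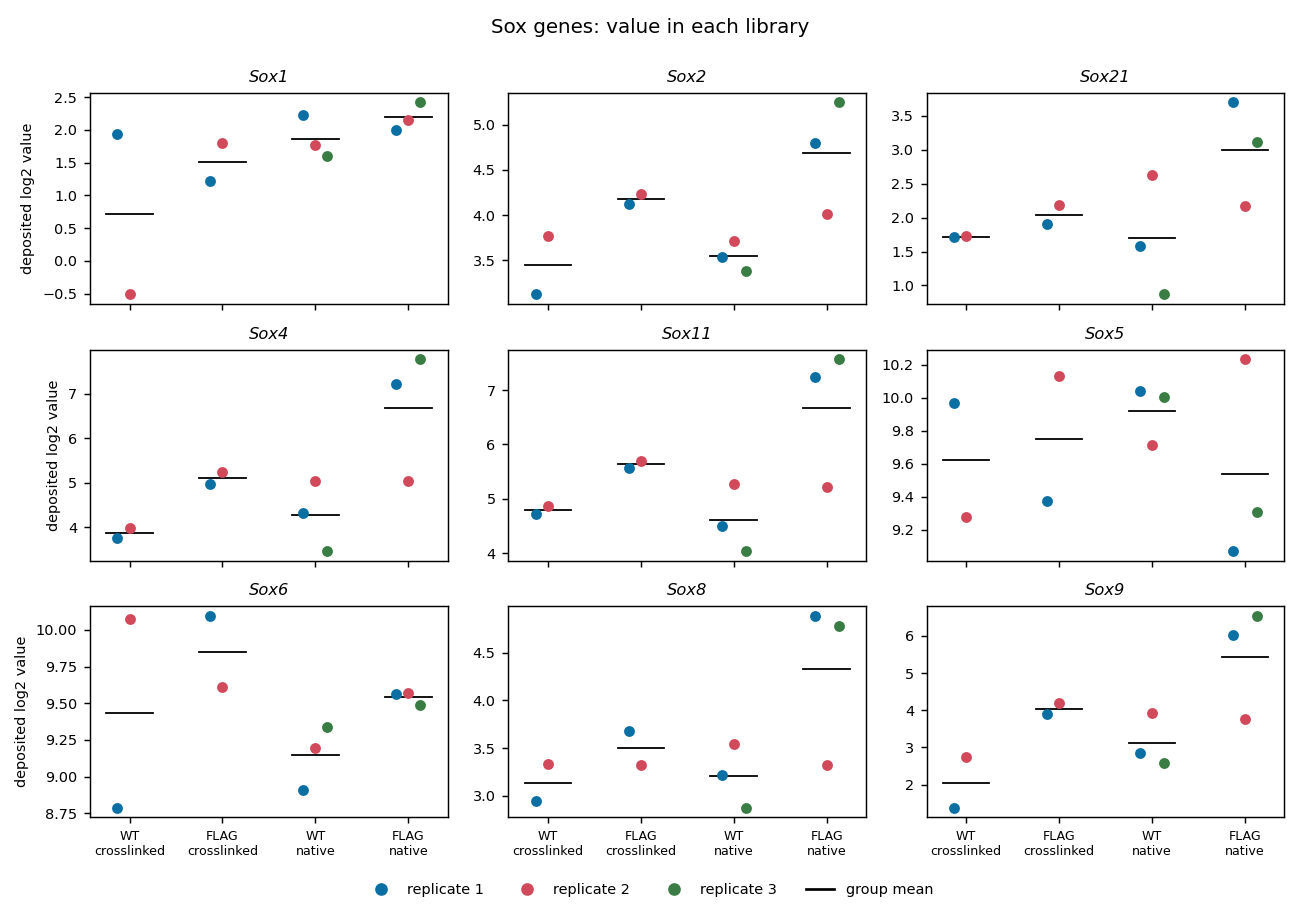
Deposited log2 value (y axis, its range set for each gene) of the 9 Sox genes in each of the 10 libraries, grouped by genotype and protocol on the x axis. Points are libraries coloured by replicate number, and the black line is the group mean. In the native FLAG group, replicates 1 and 3 of Sox4, Sox9 and Sox11 lie between 6.03 and 7.78 and replicate 2 lies near the WT libraries.

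Of the SOXE genes, Sox9 (chr11:112782224-112787760) had values of 3.89 and 4.19 in the FLAG crosslinked libraries against 1.38 and 2.73 in the WT crosslinked libraries. In native lysates its FLAG values were 6.03, 3.77 and 6.54 and its WT values 2.84, 3.91 and 2.57. Both crosslinked FLAG libraries lay above both WT libraries, whereas in the native set FLAG replicate 2 lay below WT replicate 2. The difference over all libraries was 2.20 (SE 0.50, adjusted p = 0.0852, limma), a 4.58-fold higher level in FLAG. Crosslinked alone it was 1.99 (SE 0.50, adjusted p = 0.511), or 1.31 without WT crosslinked replicate 1 and 0.98 with a pseudocount of 8, and native alone 2.34 (SE 0.66, adjusted p = 0.232). Sox8 (chr17:25565892-25570686), which overlaps Sox9 in function, had 3.68 and 3.33 in FLAG against 2.95 and 3.33 in WT when crosslinked, so these groups overlapped. Native, it had 4.88, 3.32 and 4.78 in FLAG against 3.22, 3.54 and 2.88 in WT. Its difference was 0.81 over all libraries (SE 0.30, adjusted p = 0.184), 0.36 crosslinked and 1.12 native.

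Of the SOXC genes, Sox4 (chr13:28948919-28953713) had 4.97 and 5.25 in FLAG against 3.76 and 3.98 in WT crosslinked libraries. Its native values were 7.23, 5.04 and 7.78 in FLAG against 4.33, 5.03 and 3.47 in WT. Every FLAG library was above every WT library of its protocol, though FLAG native replicate 2 (5.0421) was above WT native replicate 2 (5.0347) only in the second decimal. The difference was 1.94 over all libraries (SE 0.49, adjusted p = 0.101), 1.24 crosslinked (SE 0.15, adjusted p = 0.315) and 2.41 native (SE 0.66, adjusted p = 0.232). Sox11 (chr12:27334264-27342574) had 5.57 and 5.69 in FLAG against 4.72 and 4.86 in WT crosslinked libraries. Native, it had 7.25, 5.22 and 7.57 in FLAG against 4.50, 5.28 and 4.04 in WT, where FLAG replicate 2 fell just below WT replicate 2. The difference was 1.58 over all libraries (SE 0.44, adjusted p = 0.118), 0.84 crosslinked (SE 0.10, adjusted p = 0.315) and 2.07 native (SE 0.58, adjusted p = 0.232). Within the crosslinked protocol the replicates of Sox4 and of Sox11 lay closer to each other than the groups did, but with 2 libraries against 2 no gene of the matrix passed the adjusted threshold.

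Of the SOXB genes, Sox2 (chr3:34650405-34652461), the SOXB1 factor of NSCs, had 4.12 and 4.24 in FLAG against 3.13 and 3.76 in WT crosslinked libraries. Its native values were 4.80, 4.01 and 5.25 in FLAG against 3.54, 3.71 and 3.39 in WT. As for Sox4, every FLAG library was above every WT library of its protocol, which held for 4.84% of all genes in this direction. The difference was 0.98 over all libraries (SE 0.23, adjusted p = 0.0865), a 1.97-fold higher level, with 0.73 crosslinked, or 0.41 without WT crosslinked replicate 1, and 1.14 native. Sox21 (chr14:118233232-118237030) had 1.90 and 2.19 in FLAG against 1.72 and 1.72 in WT crosslinked libraries, and 3.70, 2.18 and 3.11 in FLAG against 1.59, 2.63 and 0.87 in WT native libraries. Its native groups overlapped through replicate 2 of each. The difference was 0.91 over all libraries (SE 0.38, adjusted p = 0.212), 0.32 crosslinked and 1.30 native.

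Sox1 (chr8:12395295-12400126), the other SOXB1 gene, had low values and did not follow Sox2. It had 1.22 and 1.80 in FLAG against 1.93 and -0.51 in WT crosslinked libraries, and 1.99, 2.16 and 2.42 in FLAG against 2.23, 1.77 and 1.60 in WT native libraries. The groups overlapped in both protocols. The crosslinked difference of 0.80 (SE 0.89, adjusted p = 0.863) rests on 1 library, WT crosslinked replicate 2, and without it was -0.42. Over all libraries it was 0.52 (SE 0.39, adjusted p = 0.429), and it was 0.097 without that library and 0.015 with array weights.

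Of the SOXD genes, Sox5 (chr6:143828425-144781977) had 9.37 and 10.13 in FLAG against 9.97 and 9.27 in WT crosslinked libraries, and 9.07, 10.23 and 9.31 in FLAG against 10.04, 9.72 and 10.00 in WT native libraries. The highest and the lowest native value of Sox5 were both FLAG libraries. Its difference was -0.18 over all libraries (SE 0.25, adjusted p = 0.672), 0.13 crosslinked and -0.38 native. Sox6 (chr7:115470872-116038796) had 10.10 and 9.61 in FLAG against 8.79 and 10.07 in WT crosslinked libraries. Native, its values were 9.56, 9.57 and 9.49 in FLAG against 8.91, 9.20 and 9.34 in WT, so that the groups did not overlap. That native difference of 0.39 (SE 0.16, adjusted p = 0.281) was below the fold threshold, and over all libraries it was 0.40 (SE 0.21, adjusted p = 0.283). With 1 library left out, the difference over all libraries ran from 0.20 to 0.60 for Sox6 and from -0.34 to -0.023 for Sox5. The native difference of Sox5 then ran from -0.73 to -0.15. With array weights the Sox6 value over all libraries was 0.73 (limma, adjusted p = 0.00489), past the threshold. These weights were 10.2 for FLAG crosslinked replicate 2 and 9.02 for WT crosslinked replicate 1, against 0.124 to 1.36 for the others. The weighted value thus rests largely on 2 libraries, where Sox6 had 9.61 and 8.79.

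**Figure D2:**
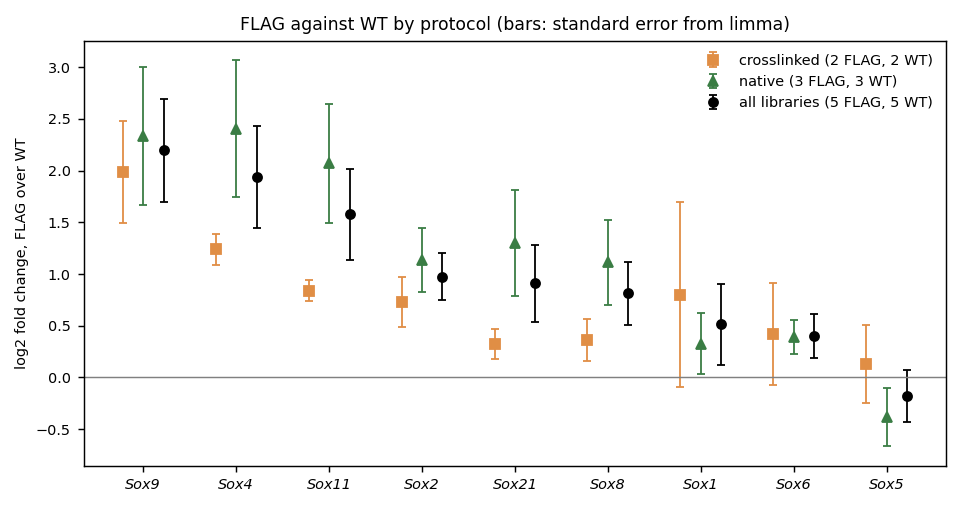
Log2 fold change of FLAG over WT (y axis) for the 9 Sox genes (x axis) in the crosslinked, the native and all libraries, with the standard error from limma as bars. Sox9, Sox4 and Sox11 have the largest differences over all libraries (2.20, 1.94 and 1.58), and Sox5 has -0.18.

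Counted by groups that do not overlap, 2 of 9 Sox genes were higher in every FLAG library of both protocols (Sox2 and Sox4, background 4.84%), 5 of 9 in the crosslinked libraries (Sox2, Sox4, Sox9, Sox11 and Sox21, background 19.1%) and 3 of 9 in the native libraries (Sox2, Sox4 and Sox6, background 8.62%). None was lower in every FLAG library of both protocols (background 4.47%), of the crosslinked (background 19.9%) or of the native set (background 10.8%).

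For Sox4, Sox9, Sox11, Sox2, Sox8 and Sox21 the native FLAG values of replicates 1 and 3 were above that of replicate 2. Measured from the WT mean of the native protocol, Sox4 stood at 2.95 in replicate 1, 0.77 in replicate 2 and 3.50 in replicate 3. Sox9 stood at 2.92, 0.66 and 3.43, and Sox11 at 2.64, 0.61 and 2.97. The WT native libraries themselves spread from -0.81 to 0.76 for Sox4, from -0.54 to 0.80 for Sox9 and from -0.57 to 0.67 for Sox11, so FLAG replicate 2 lay inside the WT range for Sox9 and Sox11. Without FLAG native replicate 2 the native differences were 3.23 for Sox4 (adjusted p = 0.0048), 3.17 for Sox9 (adjusted p = 0.00468) and 2.80 for Sox11 (adjusted p = 0.00464), and 6 of 9 Sox genes passed the threshold as higher and 1, Sox5 (-0.73, adjusted p = 0.0192), as lower. In that fit 1450 of all genes were called higher and 1710 lower, against 0 and 17 with all native libraries. Without replicates 1 and 3, the native difference was 0.77 for Sox4, 0.66 for Sox9, 0.61 for Sox11, 0.46 for Sox2, 0.48 for Sox21, 0.11 for Sox8 and 0.31 for Sox5, while Sox6 (0.42) and Sox1 (0.29) stayed near their values with all libraries. This leaves replicate 2 as the lone native FLAG library, so the native fit takes its spread from the WT libraries alone, and its values are given as a description. Over all libraries, the differences without these replicates were 1.42 for Sox9, 1.04 for Sox4, 0.74 for Sox11, 0.62 for Sox2, 0.39 for Sox21, 0.25 for Sox8, 0.21 for Sox5, 0.42 for Sox6 and 0.58 for Sox1. By the unadjusted rule 4 of 9 Sox genes were then higher over all libraries (Sox2, Sox4, Sox9 and Sox11, against 2.88% of all genes in that fit). Replicates 1 and 3 are also the libraries with many genes tied at the lowest value, and the part of this in the Sox values was not tested.

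**Figure D3:**
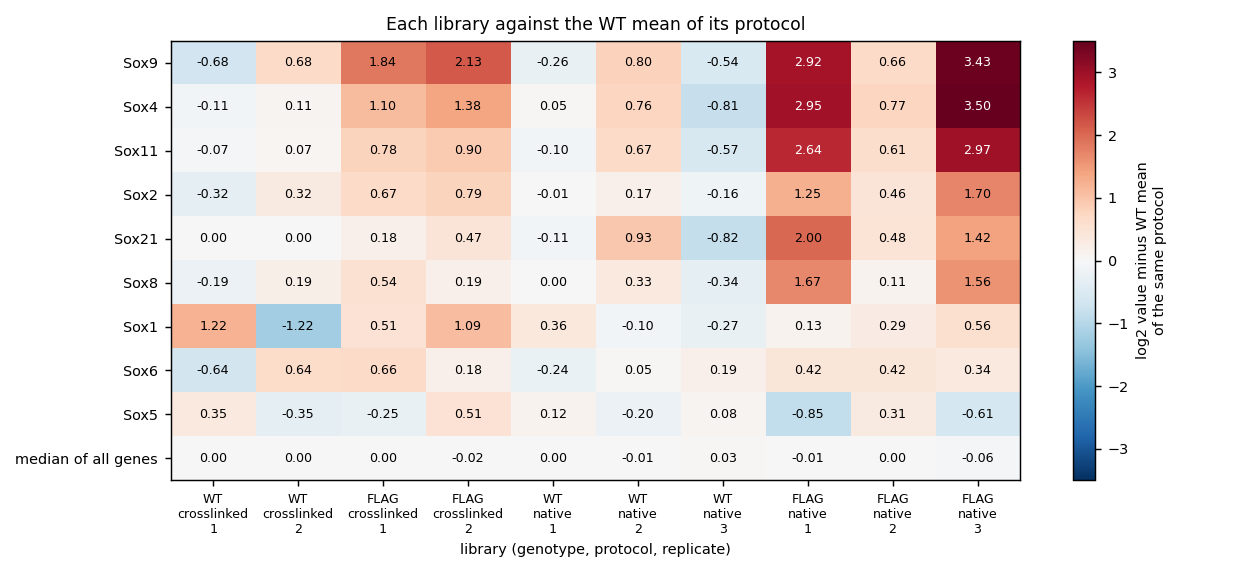
Log2 value of each Sox gene (rows) in each library (columns) minus the WT mean of the same protocol, with the median of all genes in the last row. Colour runs from blue (below the WT mean) to red (above). Sox4 stands at 2.95, 0.77 and 3.50 in the FLAG native replicates 1, 2 and 3, and at 1.10 and 1.38 in the FLAG crosslinked replicates.

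Over all libraries, leaving out FLAG native replicate 2 brought Sox2, Sox4, Sox9 and Sox11 past the threshold (adjusted p = 0.0208, 0.0219, 0.0138 and 0.029), with 516 of all genes called higher. Leaving out WT crosslinked replicate 2 did so for Sox2 and Sox9 (adjusted p = 0.037 and 0.0408), with 182 of all genes called higher. No other library left out alone made a Sox gene pass in these 3 comparisons.

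The Sox genes that differed most are short. Sox1, Sox2, Sox4, Sox11 and Sox21 have 1 exon, and Sox8 and Sox9 have 3 exons in gene bodies of 4795 and 5537 nt. Sox5 spans 953553 nt, of which 1.51% is exonic, and Sox6 spans 567925 nt, of which 2.61% is exonic. The 200 coding genes of the matrix with 1 exon had a median FLAG to WT difference of 0.75 over all libraries, 0.36 crosslinked and 0.97 native, and 74.5% of them were above 0.58 in the native libraries against 16.4% of all 12288 coding genes. Of these 200 genes, 7 had a difference over all libraries at least as large as that of Sox4, 18 as that of Sox11, 63 as that of Sox2, 71 as that of Sox21 and 146 as that of Sox1, which lay below most of this class. Of the 2465 coding genes with a gene body under 10 kb, 13 reached the difference of Sox9 and 333 that of Sox8. Among the 514 coding genes with a gene body over 300 kb the median was -0.23 over all libraries and -0.35 native, so that Sox5, with -0.18 and -0.38, was near its length class and Sox6, with 0.40 and 0.39, above it. After the trend of each library on gene body length was removed, a check chosen after the data were seen, the difference over all libraries was 2.01 for Sox9, 1.81 for Sox4, 1.40 for Sox11, 1.12 for Sox2, 0.94 for Sox21, 0.69 for Sox8, 0.64 for Sox6, 0.39 for Sox1 and 0.055 for Sox5, with the smallest adjusted p at 0.0705 (Sox9). Sox6 then stood at 0.74 native (adjusted p = 0.215), and by the unadjusted rule 7 of 9 Sox genes, Sox6 among them, were higher over all libraries (6.85% of all genes) and native (7.69% of all genes).

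**Figure D4:**
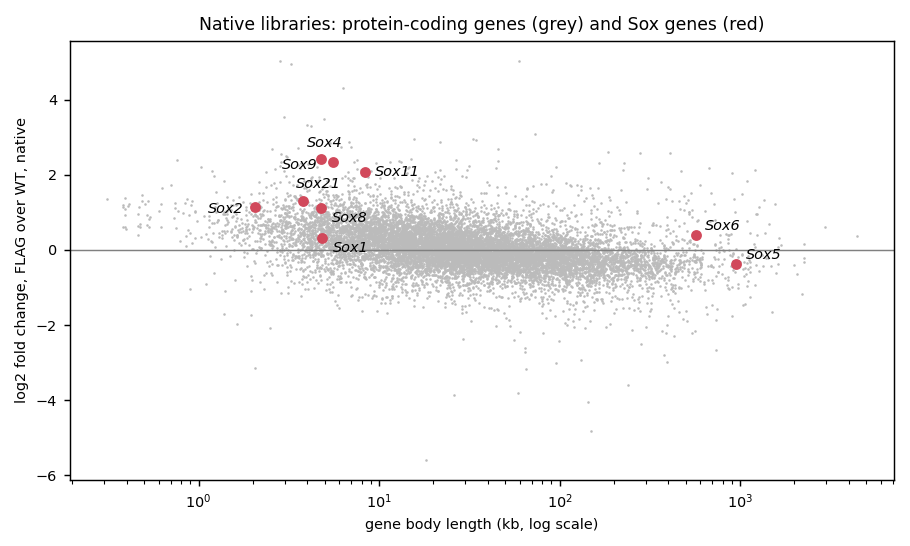
Log2 fold change of FLAG over WT in the native libraries (y axis) against gene body length in kb (x axis, log scale) for 12288 protein-coding genes (grey) and the 9 Sox genes (red). Sox4 (2.41), Sox9 (2.34) and Sox11 (2.07) lie above most genes of their length, and Sox1 (0.33) lies among them.

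The undivided values of Sox5 and Sox6 were the highest of the family, and values in this matrix were higher in genes with a longer body. The median linear value was 3.36 for coding genes with a body under 10 kb and 100.3 for those over 300 kb. Levels between genes are therefore given per kb of gene body, on the linear scale. In the 5 WT libraries the median level was 5.65 per kb for Sox2 (4.24 to 6.60), 3.29 for Sox4 (2.31 to 6.84), 3.17 for Sox11 (1.98 to 4.68) and 1.94 for Sox8 (1.53 to 2.43). It was 1.20 for Sox9 (0.470 to 2.72), 1.03 for Sox6 (0.779 to 1.90), 1.05 for Sox5 (0.649 to 1.10), 0.866 for Sox21 (0.482 to 1.63) and 0.704 for Sox1 (0.145 to 0.969). Every pair of neighbours in this order of the means overlapped in range. In the 5 FLAG libraries the order of the means was Sox4 (median 7.94 per kb, 6.52 to 45.8), Sox2 (9.16, 7.81 to 18.5), Sox11 (6.23, 4.47 to 22.9), Sox9 (3.30, 2.46 to 16.8), Sox8 (2.67, 2.09 to 6.16), Sox21 (1.20, 0.985 to 3.42), Sox6 (1.34, 1.26 to 1.93), Sox5 (0.694, 0.564 to 1.26) and Sox1 (0.823, 0.483 to 1.11), again with neighbours overlapping. Per kb of exon the order was another one, with means over all 10 libraries of 60.5 for Sox5 and 49.5 for Sox6 above 11.8 for Sox4, though FLAG native replicates 1 and 3 raise that of Sox4.

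Several Sox genes overlap other annotated genes, and whether the counting used the strand is not stated in the sources used here, so reads of a gene and of an antisense partner cannot be told apart. Gm26735 is a lincRNA gene on the strand opposite to Sox4 and shares 2753 nt with it. Its values were 4.57 and 4.93 in FLAG against 3.39 and 3.51 in WT crosslinked libraries, and 6.55, 4.41 and 7.21 in FLAG against 3.55, 4.41 and 3.11 in WT native libraries. Its difference over all libraries was 1.94 (SE 0.48, adjusted p = 0.0941), the same as that of Sox4 to the second decimal, and across the 10 libraries it correlated with Sox4 at r = 0.99. The antisense loci Sox5os2, Sox5os3 and Sox5os4, which lie inside the Sox5 gene body, correlated with Sox5 at 0.96, 0.94 and 0.95, and the sense intronic Sox5it at 0.92. Sox5os1 and Sox5os5 correlated with it at 0.63 and 0.48. Sox1ot, whose body holds all of Sox1 on the same strand, correlated with Sox1 at 0.90. Sox2ot, a long noncoding gene that holds Sox2 in the same way, did not follow Sox2 (r = 0.28), and its difference over all libraries was 0.20 (SE 0.20, adjusted p = 0.546) against 0.98 for Sox2. The mean linear level per group was 538 to 757 for Sox2ot and 11.2 to 27.3 for Sox2. At these levels shared reads would barely move Sox2ot, so its r cannot tell whether reads are shared. The other overlapping genes with a row correlated with their Sox gene at 0.18 (Gm4675 with Sox21), 0.37 (Gm45025 with Sox6), 0.62 (2810468N07Rik with Sox8) and 0.84 (Gm44068 with Sox5). These correlations describe 10 libraries that hold both genotypes and both protocols. No window of 75 nt of a Sox transcript was shared with another Sox transcript, so reads of that length can be placed on 1 member.

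**Figure D5:**
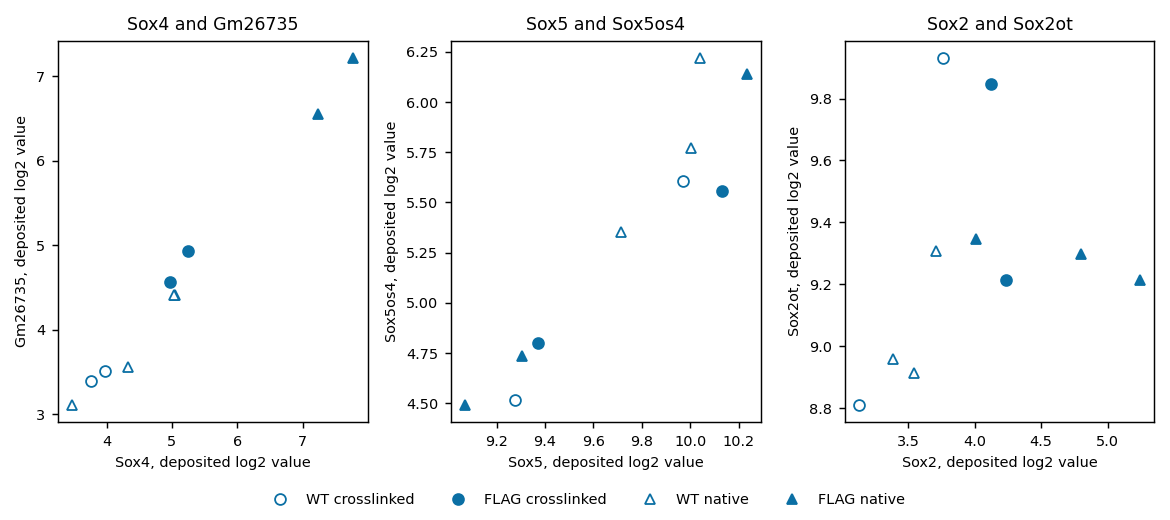
Deposited log2 value of an overlapping gene (y axis) against that of its Sox gene (x axis) in the 10 libraries, for Sox4 with the antisense Gm26735, Sox5 with the antisense Sox5os4 and Sox2 with the overlapping Sox2ot. Filled symbols are FLAG, open symbols WT, circles crosslinked and triangles native. The correlations are 0.99, 0.95 and 0.28.

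Across the 10 libraries Sox2, Sox4, Sox8, Sox9, Sox11 and Sox21 moved together, with pairwise Pearson correlations of 0.81 to 0.98. Sox4 with Sox11, the SOXC pair, was the highest at 0.98. The SOXE pair, Sox8 with Sox9, correlated at 0.93. The SOXB1 pair did not, at 0.25 for Sox1 with Sox2, and the SOXD pair was opposed, at -0.51 for Sox5 with Sox6. Sox5 correlated negatively with all members other than Sox1, down to -0.75 with Sox8. In the libraries this shows as FLAG native replicates 1 and 3 being at once the highest for Sox4, Sox8, Sox9, Sox11 and Sox21 and among the lowest for Sox5.

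Outside the family, with values centred within each protocol, the gene most like each Sox gene over the 10 libraries was Gm26735 for Sox4 (r = 0.996), P2ry1 for Sox2 (0.989), which encodes a purinergic receptor, and 1700020I14Rik for Sox11 (0.998). It was Mir5114 for Sox9 (0.991), Cbx3 for Sox8 (0.992), Plxnb2 for Sox21 (0.991) and En2 for Sox1 (0.951). It was Prr5l for Sox5 (0.993) and Slc12a7 for Sox6 (0.994). P2ry1 and Sox2 had similar shapes but differed in size, with a difference over all libraries of 2.17 for P2ry1 (SE 0.50, adjusted p = 0.0852). En2 shared with Sox1 the low value in WT crosslinked replicate 2, where it was -1.81 against 1.16 to 2.37 in the other 9 libraries.

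The FLAG to WT difference was then compared between the protocols (limma, 4 groups, native minus crosslinked difference). No Sox gene passed (background 0% in either direction), and 0 of 9 passed the unadjusted rule (background 0.233% higher and 0.182% lower). That count changed with the weighting and the libraries, with 4 of 9 higher under array weights (Sox4, Sox8, Sox11 and Sox21, 6.82% of all genes) and 3 of 9 without FLAG native replicate 2 (Sox4, Sox8 and Sox11, 6.94% of all genes), and no Sox gene past the adjusted threshold in either. The difference ran from -0.51 for Sox5 (SE 0.51, adjusted p = 0.97) to 1.23 for Sox11 (SE 0.85, adjusted p = 0.97), with 1.17 for Sox4 (SE 0.99). With 1 library left out it ran from -0.89 to -0.13 for Sox5, 0.78 to 1.96 for Sox11 and 0.62 to 1.99 for Sox4. Native against crosslinked within the WT libraries, which compares the nonspecific background of the 2 protocols, called no Sox gene (background 0.0126% higher and 0.0252% lower), with values from -0.28 for Sox6 (SE 0.37) to 1.15 for Sox1 (SE 0.70). Both of these turned without WT crosslinked replicate 2, to 0.36 for Sox6 and -0.066 for Sox1. With the random block, 87 of all genes were higher and 16 lower there, against 2 and 4 without it, and no Sox gene was called (smallest adjusted p = 0.273). Without the block, 0 of 9 were higher by the unadjusted rule (background 4.24%) and 0 of 9 lower (background 3.11%). With it, Sox9 passed that rule as higher (1.14, limma, unadjusted p = 0.0313), and the share of all genes there is not given here. No Sox gene had groups that did not overlap (background 12.5% higher and 17.3% lower). Within the FLAG libraries none was called either (background 0.0503% higher and 0.0189% lower), and 0 of 9 passed the unadjusted rule as higher (background 5.89%) or lower (background 2.85%). With array weights 7 of 9 passed it as higher (all but Sox5 and Sox6, 12.6% of all genes). Without FLAG native replicate 2, 6 of 9 did (all but Sox1, Sox5 and Sox6, 13.7% of all genes). None passed as lower in these 2 fits (12.2% and 12.3% of all genes). The largest value there was 1.58 for Sox4 (SE 0.74, adjusted p = 0.587). It was 2.40 and past the threshold without FLAG native replicate 2 (adjusted p = 0.0206) and 1.03 without FLAG native replicate 3. The native and crosslinked FLAG libraries did not overlap for Sox1, with a native minus crosslinked difference of 0.68, and for Sox6, with a difference of -0.31 (1 of 9 each, background 13.5% higher and 17.9% lower), while Sox4 overlapped through FLAG native replicate 2. With 1 library left out these differences ran from 0.39 to 0.97 for Sox1 and from -0.56 to -0.069 for Sox6.

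Of 14 SOX partner factors, all had a row and none passed the adjusted threshold over all libraries (background 0.264% higher and 0.233% lower). By the unadjusted rule, which asks for a log2 fold change beyond 0.58 as well as an unadjusted p under 0.05, 5 of 14 were higher (background 7.24%) and 0 lower (background 5.28%), and the median difference of the 14 was 0.24. Crosslinked, 2 of 14 were higher (background 2.78%) and 0 lower (background 0.987%), and native, 4 of 14 were higher (background 7.77%) and 2 lower (background 7.06%), the latter being Tcf7l2 (-0.60) and the Hedgehog effector Gli2 (-0.78), named after its value was seen. The 5 higher over all libraries were Olig2, the oligodendrocyte lineage factor (0.94, SE 0.29, adjusted p = 0.137), and the POU factors Pou3f1, Pou3f2, Pou3f3 and Pou3f4. Pou3f4 had a difference of 1.14 (SE 0.37, adjusted p = 0.141). Pou3f1, Pou3f2 and Pou3f3 are named here after their values were seen. The Wnt effector Tcf7l2 had -0.43 (SE 0.15, adjusted p = 0.16), with an unadjusted p of 0.0143 but short of the fold limit. Of 24 known SOX target genes, 13 had a row, none passed the adjusted threshold, and by the unadjusted rule with its fold limit 2 of 13 were higher (background 7.24%) and 0 lower (background 5.28%), with a median of 0.36. Ccnd1, a G1 cyclin, had 1.31 (SE 0.38, adjusted p = 0.124), the receptor gene Notch1 had 0.35 (SE 0.10, adjusted p = 0.112) and the homeobox gene Prox1 had 0.41 (SE 0.12, adjusted p = 0.132). Notch1 and Prox1, with unadjusted p of 0.0037 and 0.0069, were short of the fold limit.

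The other coding Sox genes of the matrix, outside the listed 10, were Sox3, Sox12, Sox13 and Sox30. The SOXB1 gene Sox3 had a difference over all libraries of 0.87 (SE 0.33, adjusted p = 0.187), and Sox12, the remaining SOXC gene, had 0.26 (SE 0.38, adjusted p = 0.68). The SOXD gene Sox13 had -0.62 (SE 0.21, adjusted p = 0.158), with every native FLAG value but that of replicate 2 below every native WT value. Sox30 had 0.83 (SE 0.45, adjusted p = 0.294), with values of -1.11 to 1.38.

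Markers of other cell types were read beside these results. Of the 7 oligodendrocyte lineage markers, 4 had a row, and their summed linear level was 97.9 to 111.7 in FLAG against 61.3 to 88.5 in WT crosslinked libraries and 127.7 to 406.3 in FLAG against 81.1 to 144.1 in WT native libraries. Of the 4 astrocyte markers, 3 had a row (6.73 to 11.4 against 4.86 to 5.99 crosslinked, 9.68 to 35.2 against 8.40 to 9.12 native, FLAG first). Both sums moved with the SOXE and SOXC values, and their part in those was not tested. Of the 6 neuroblast and neuron markers only Rbfox3 had a row. Its difference over all libraries was -1.31, lower in FLAG (SE 0.17, adjusted p = 0.0127). The microglia markers (2 of 5 with a row) summed to 18.7 to 21.1 in FLAG against 18.0 to 19.2 in WT crosslinked and 18.2 to 26.0 in FLAG against 16.6 to 19.0 in WT native libraries. The ependymal markers (2 of 3) summed to 1.99 to 2.15 in FLAG against 1.60 to 2.14 in WT crosslinked and 2.68 to 9.17 in FLAG against 2.53 to 4.05 in WT native libraries. The single endothelial or mural marker with a row (of 5), Pecam1, was at 0.710 to 1.21 in the FLAG and 1.38 to 1.53 in the WT libraries. The part of these in the Sox values was not tested. None of the 5 fibroblast markers had a row.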

How the data were processed

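RIP-seq libraries of 10 pulldowns were analysed: FLAG crosslinked (n = 2), FLAG native (n = 3), WT crosslinked (n = 2) and WT native (n = 3). The authors trimmed reads with Cutadapt and Trimmomatic, mapped them to GRCm38 with HISAT2, counted them per gene with featureCounts on GENCODE M16, removed low genes and normalised. The deposited values are on the log2 scale, with 1 column per library. The methods and the labels name different tools for the normalisation, and the columns have nearly equal distributions. The strand setting of the counting is not given in the sources used here.

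Values were fitted with limma 3.58.1 in R 4.3.3 (lmFit, eBayes with a trend) on all 15899 genes, and p-values were adjusted by Benjamini-Hochberg over all of them. A gene was called at an adjusted p under 0.05 and a log2 fold change above 0.58 or below -0.58. FLAG against WT over all libraries had the protocol as a covariate. Group membership came from the labels. The replicates are separate cultures per the methods, and no source used here says whether a crosslinked and a native library came from 1 culture, so p-values may measure part of the spread only. Same-numbered crosslinked and native libraries of a genotype deviated together from their group means (r = 0.18 and 0.15 in FLAG, 0.30 and 0.39 in WT, across genes). Differently numbered pairs had r of -0.39 to 0.23, the highest for WT crosslinked replicate 1 with WT native replicate 3. The 2 crosslinked deviations of a genotype mirror each other, so its 2 values are not separate evidence. Fits over both protocols were repeated with same-numbered libraries of a genotype as a random block (duplicateCorrelation), chosen after the data were seen. No library was dropped or imputed. The code was tested on simulated data.

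The GENCODE M21 annotation of GRCm38 held 15864 of the 15899 genes, 14849 of them with the same start and end. It gave their exons, and a 3′ UTR for 12177 protein-coding genes of the matrix. Sequence was read from the genome of that build. The MRE was searched on the transcript strand with overlapping matches counted by start, in the form given in the study's methods, with the form that swaps the last bases, and merged 3′ UTR exons, as alternatives. Named were all listed Sox genes, other Sox rows and genes overlapping a member, the gene outside the family with the highest protocol-centred correlation with each member, the 3 genes with the smallest p of each fixed list, and Mex3a. The members and lists were chosen with earlier results of these data known. Alternatives were pseudocounts of 1 and 8, a minimum mean linear value of 10, quantile and trimmed mean (30% at each end) scaling, array weights, no trend, 1 fit of 4 groups, a replicate block and each library left out. Chosen after the data were seen were trends on length and GC removed in 20 bins, a crossed block, and FLAG native replicates 1 and 3 left out.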

Additional observations from a re-analysis of the deposited data

How the results depend on the processing

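Of the Sox genes, those called over all libraries changed with the weighting: limma array weights called 5 higher over all libraries (Sox2, Sox4, Sox6, Sox9 and Sox11, with 1105 of all genes higher and 964 lower), 6 higher and 1 lower native (1656 and 1921 of all genes) and 2 between the FLAG protocols (762 and 270 of all genes). Over all libraries these weights took Sox4 to 1.43, Sox11 to 0.99, Sox21 to 0.51 and Sox8 to 0.40. They were 10.2 for FLAG crosslinked replicate 2 and 9.02 for WT crosslinked replicate 1, against 0.124 to 1.36 for the others. The weighted fit over all libraries thus rests largely on 1 FLAG and 1 WT library. Over all libraries, all genes called higher were 10 with a pseudocount of 8, 13 with a mean linear value of 10 or more and 13 without the trend (12 lower). Native, 7 were lower with that minimum, 0 without the trend and 10 with the GC trend removed. With 1 fit of 4 groups, 1 was higher and 3 were lower native. That fit gave 1 crosslinked Sox gene by the unadjusted rule, and the share of all genes under that rule is not given here. Without FLAG native replicates 1 and 3, 8 genes were higher and 10 lower over all libraries. Sox5 over all libraries turned to 0.12 with array weights, 0.21 without FLAG native replicates 1 and 3 and 0.055 with the length trend removed, and native to 0.31 without those replicates. The cause of these changes was not tested.

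Leaving out 1 library gave 4 to 516 genes higher and 7 to 219 lower over all libraries, with 0 to 4 Sox genes called. Native it gave 0 to 1450 higher and 0 to 1710 lower, with 0 to 6 Sox genes higher and 0 to 1 lower. Crosslinked, leaving out 1 library leaves a lone library in a group, so only the differences are given, further below. It gave 0 to 4 Sox genes between the FLAG protocols, the 4 without FLAG native replicate 2, where 767 of all genes were higher and 202 lower. Crosslinked differences ran from -0.42 to 2.02 for Sox1, from -0.25 to 0.51 for Sox5, from -0.22 to 1.06 for Sox6, from 0.41 to 1.05 for Sox2, from 0.17 to 0.56 for Sox8, from 0.18 to 0.47 for Sox21 and from 1.31 to 2.66 for Sox9. WT native minus crosslinked ran from -0.066 to 2.37 for Sox1 and from -0.93 to 0.36 for Sox6. A lone library left in a group (crosslinked, or native FLAG without replicates 1 and 3) is assumed to vary like the other group.

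With the replicate number as a block, 14 genes were higher and 20 lower over all libraries and 1 was higher native, and no Sox gene was called. Same-numbered FLAG and WT libraries deviated oppositely from their group means (r of -0.27 crosslinked, and -0.15, -0.43 and -0.17 native). Crosslinked deviations of a genotype mirror each other, so differently numbered crosslinked pairs had r of 0.27 and only the sign carries information. Native deviations are also tied through their group mean. These values therefore cannot decide whether the numbers pair FLAG with WT. The random block of same-numbered crosslinked and native libraries within a genotype gave 7 genes higher and 8 lower over all libraries, and it called no Sox gene in any fit that holds both protocols. The crossed pairing of the crosslinked libraries called 0 genes. All 9 UTRs held an MRE match under both alternatives, with 70 matches in the swapped form and 87 in merged 3′ UTR exons. Depth is unknown, so values of low genes such as Sox1 and Sox21 carry no counting interval.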
